A study of Oryza sativa with 24 samples.

Results

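The step from 6 h to 24 h of osmotic stress was examined in rice (Oryza sativa) seedlings by setting the small RNA arrays of seedlings kept for 24 h in PEG against those of seedlings kept for 6 h in PEG. PEG6000, here at 15%, is a large inert polymer that lowers the water potential of the culture solution, so that roots take up water less easily. The comparison was defined by the sample titles, which give 4 arrays at 24 h and 4 arrays at 6 h, 8 of the 24 arrays of the series. The 4 arrays of a time came from 2 small RNA libraries that were each hybridized on 2 arrays, so the comparison rests on 4 of the 12 libraries (n = 2 per time). Libraries of the same number were paired between times, and all 224 spot sets of the array were compared. Seedlings of both times grew in Yoshida's culture medium, lit for 13 h a day at 26 °C and kept dark for 11 h at 22 °C. Both carried the PEG treatment, so the comparison shows how small RNA levels differed between a later and an earlier time under stress and not what PEG itself changed. The labels name seedlings and give no cultivar, organ or hour of harvest. The sampling times lie 18 h apart, and time in PEG, time of day and seedling age cannot be told apart. The series' design calls the libraries of a time biological and the hybridizations of a library technical replicates. It does not say that the libraries came from separate plants. Pairing removes any difference between library numbers that was the same at all times. The p-values then reflect only how far libraries still differed after that, part of which may be technical. In seedling samples, fewer cells of a type and less of a small RNA per cell cannot be told apart.

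MicroRNAs are short RNAs that guide Argonaute proteins to messenger RNAs with a matching sequence. In plants they mostly lead to cleavage of those messengers or block their translation, and many of the targets encode transcription factors and signalling proteins. Several plant microRNA families are known to respond to water deficit. The arrays carry probe codes that begin with R or N, and the files used here do not pair these codes with microRNA names or sequences. Results are therefore given for spot sets, each made of 4 neighbouring spots of 1 code, and only a few codes are printed.

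Between 24 h and 6 h most spot sets differed little, and a small group rose or fell by up to 2.13 fold. Of the 224 spot sets, 10 changed at an adjusted p under 0.05, which is 4.46% (limma with the library number as a block, Benjamini-Hochberg adjustment). Of these, 5 (2.23%) were higher at 24 h and 5 (2.23%) were lower. That split depended on the scaling: scaling arrays to a common median gave 4 higher and 12 lower, and subtracting the median of each of the array's sub-grids gave 10 higher and 5 lower. The 5 that rose did so by 0.57 to 0.96 on the log2 scale, which is 1.49 to 1.95 fold. The 5 that fell had log2 changes between -1.09 and -0.46, which is 1.37 to 2.13 fold. Adjusted p-values of the 10 lay between 0.0186 and 0.0498, so none passed by a wide margin, and 33 sets had an unadjusted p under 0.05. Without the library block, 0 sets passed by limma and 9 had an unadjusted p under 0.05. The count was also 0 with an offset of 200 in place of 50 before the log and with only the first hybridization of each library. Leaving out library 2 of 24 h, library 1 of 6 h or either of the 0.5 h libraries, which enter only the estimate of the spread, gave 0 as well. Leaving out library 1 of 24 h gave 5 and leaving out library 2 of 6 h gave 3. Each of the 10 sets missed the threshold in 4 to 8 of the 10 fits that left out 1 library. For this step, leaving out library 1 or library 2 of 0.5 h gives the same fit, and so it does for 2 h and 48 h. The 10 fits are therefore not 10 separate checks.

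Spot set R7 was the set that rose furthest. Its log2 intensity was 10.55 and 10.80 on the arrays of library 1 and 10.88 and 10.91 on those of library 2 at 24 h. At 6 h it was 9.69 and 9.76 in library 1 and 10.06 and 9.77 in library 2. All 4 arrays of 24 h lay above all 4 arrays of 6 h. The same held for single spots before any normalization, where the 16 spots of R7 had intensities of 1341 to 2904 at 24 h and of 519 to 1212 at 6 h. The means were 10.78 ± 0.15 at 24 h and 9.82 ± 0.13 at 6 h (SD, n = 2). R7 thus differed by 0.96 ± 0.14 (SE) on the log2 scale, or 1.95 fold (limma, adjusted p = 0.0186). The step was nearly equal in the libraries, 0.95 in library 1 and 0.98 in library 2. R7 missed the threshold without the block (adjusted p = 0.0598), without library 2 of 24 h (0.253), without library 1 of 6 h (0.0944) and without either library of 0.5 h (0.0533). Over its 31 alternatives, 8 of which lost the call, the adjusted p ranged from 6.15e-05 to 0.599 and the log2 change from 0.75 to 1.20. The lowest adjusted p came from the brighter sets alone, a fit that took the spread mostly from all of its sets together.

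Spot set R51 rose by a similar factor, 1.85 fold. On the 24 h arrays it had log2 intensities of 12.97 and 12.55 in library 1 and of 13.23 and 12.77 in library 2. The 6 h arrays gave 11.82 and 11.57 in library 1 and 12.33 and 12.25 in library 2. The arrays of the groups did not overlap, although the highest at 6 h and the lowest at 24 h were close. Before normalization R51 did overlap, with its 16 spots at 4070 to 12411 at 24 h and 2532 to 7905 at 6 h. The mean raw intensity of the second array of library 1 at 24 h, 4253, lay below the 6824 and 6558 of library 2 at 6 h. R51 averaged 12.88 ± 0.17 at 24 h and 11.99 ± 0.42 at 6 h (SD, n = 2), a log2 change of 0.89 ± 0.17 (SE) (limma, adjusted p = 0.0346). Its call was lost without the block (adjusted p = 0.449), without library 1 of 24 h (0.0935), without library 2 of 24 h (0.253), without library 1 of 6 h (0.183) and without either library of 0.5 h (0.0583). It was also lost without normalization between arrays (0.189) and with the first or the second hybridizations alone (0.0663 and 0.144). With only the 4 libraries of 6 h and 24 h and the block it missed the threshold too (0.102). In all, 12 of its 31 alternatives lost the call. Across the 31 alternatives its adjusted p ran from 0.000207 to 0.964, and its log2 change from 0.56 to 1.14. As for R7, the lowest adjusted p came from the brighter sets alone. R7 and R51 both lie in sub-grid 1, where the median log2 change was 0.13, the highest of the 4 sub-grids. After each sub-grid's median had been subtracted on each array, their log2 changes were 0.82 and 0.75 (limma, adjusted p = 0.00257 and 0.00885). The part of position in these rises was not tested.

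Spot set R221 fell furthest. At 24 h its log2 intensity was 14.47 and 14.60 in library 1 and 13.01 and 13.53 in library 2. At 6 h it was 14.92 and 15.46 in library 1 and 14.67 and 14.92 in library 2. The lowest arrays were those of library 2 at 24 h, and the arrays of the groups did not overlap. In raw intensity the 16 spots spanned 7349 to 24921 at 24 h and 24093 to 57476 at 6 h, so single spots met at the edge of these ranges. R221 had a mean of 13.90 ± 0.89 at 24 h and of 14.99 ± 0.28 at 6 h (SD, n = 2), and the log2 change was -1.09 ± 0.20 (SE) (limma, adjusted p = 0.0346). The fall was 2.13 fold. It was larger in library 2, with a step of -1.52 against -0.66 in library 1.

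Spot set R225, which lies next to R221 in row 10 of sub-grid 4 of the array, fell as well. Its log2 intensities at 24 h were 14.23 and 14.31 in library 1 and 12.63 and 13.15 in library 2. Those at 6 h were 14.57 and 15.03 in library 1 and 14.02 and 14.39 in library 2. Here the groups overlapped, since library 1 at 24 h stood above the lower array of library 2 at 6 h. Within each library number the 24 h arrays were below the 6 h arrays. The mean was 13.58 ± 0.98 at 24 h and 14.50 ± 0.42 at 6 h (SD, n = 2), a log2 change of -0.92 ± 0.18 (SE) (limma, adjusted p = 0.0346). As with R221 the step was larger in library 2 (-1.31) than in library 1 (-0.53). R221 and R225 both missed the threshold without the block (adjusted p = 0.956 each) and without either library of 0.5 h (0.0583 each). Leaving out library 2 of 24 h gave 0.253 for each, leaving out library 2 of 6 h gave 0.307 for each, and leaving out library 1 of 6 h gave 0.0941 for R221 and 0.0727 for R225. Each lost its call in 10 of its 31 alternatives. Over these 31 the adjusted p reached from 3.32e-06 to 0.964 for R221 and from 8.84e-05 to 0.964 for R225. The lowest came from the fit without normalization for R221, which gave all sets the same standard error, and from median scaling for R225. R221 and R225 had no spot above 60000 at 24 h or 6 h, although the brightest spot of R221 at 6 h, at 57476, came near that level. The median log2 change of sub-grid 4 was -0.06, and after each sub-grid's median had been subtracted on each array the log2 changes were -0.99 for R221 and -0.82 for R225 (adjusted p = 0.00885 and 0.00336). Another of the 5 sets that fell lies in row 10 of sub-grid 3. In that same row spot set R220, described below, had a log2 change of 0.61, and the remaining sets had -0.08 and -0.23. The remaining sets of row 10 in sub-grid 4 had -0.06 and -0.38. None of these passed the threshold. A median over a sub-grid does not show a local effect around a row, and the part of position in these falls was not tested.

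**Figure D1:**
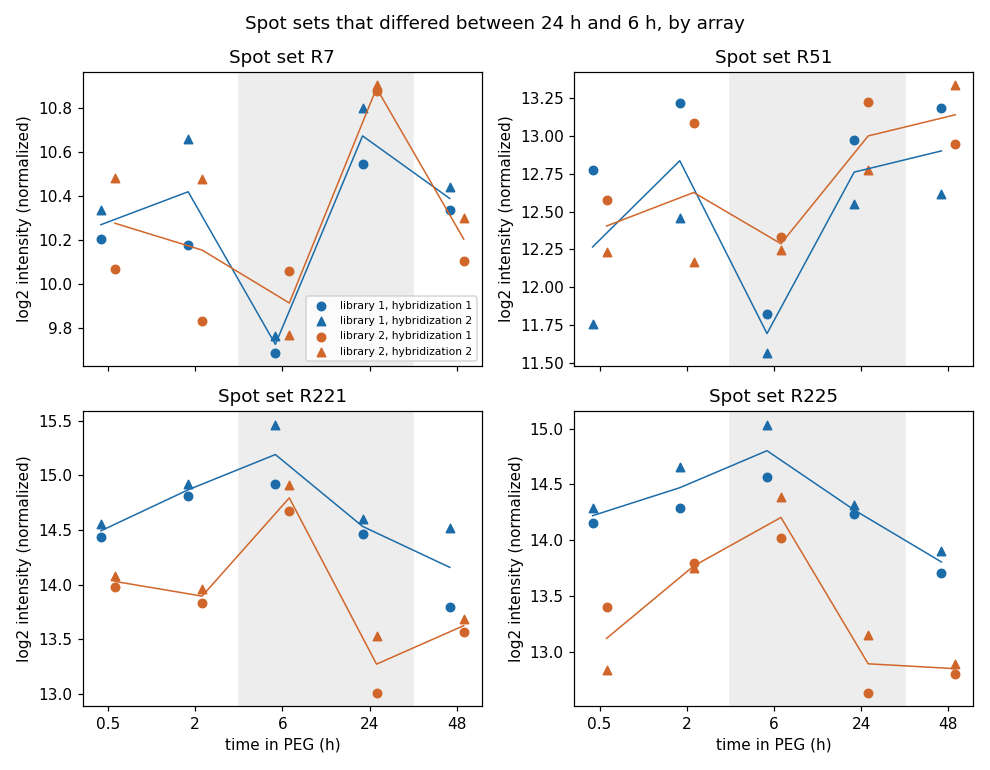
Normalized log2 intensity (vertical axis) of spot sets R7, R51, R221 and R225 on each array at 0.5, 2, 6, 24 and 48 h in PEG (horizontal axis), with circles and triangles for the first and second hybridization, colours for the library and lines through the library means; 6 h and 24 h are shaded. R7 and R51 stand lowest at 6 h and higher at 24 h, while R221 and R225 stand highest at 6 h and lower at 24 h, in both libraries.

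The course over all treated times shows what the 6 h level was like in these sets. The means of R7 at 0.5, 2, 6, 24 and 48 h were 10.27, 10.29, 9.82, 10.78 and 10.30, so its 6 h value was the lowest and its 24 h value the highest of the course. R51 had 12.34, 12.73, 11.99, 12.88 and 13.02, with the lowest value at 6 h and a level at 48 h close to that at 24 h. R221 had 14.26, 14.38, 14.99, 13.90 and 13.89, and R225 had 13.67, 14.12, 14.50, 13.58 and 13.32, and both were highest at 6 h. Of the 5 sets that rose, 4 had a lower mean at 6 h than at 2 h, and 3 were lower at 6 h than at 0.5, 2 and 24 h. Of the 5 sets that fell, 4 had a higher mean at 6 h than at 2 h, and the same number stood higher at 6 h than at 0.5, 2 and 24 h. These counts use the 6 h libraries that enter the step itself, so they describe the sets and are not a separate result. At 48 h all 5 sets that rose stood above their 6 h mean and all 5 that fell stood below it. These 48 h values do not use the 24 h libraries, but the sets were picked by the same 6 h libraries.

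The other 6 sets past the threshold are given without their codes. One of the 3 that rose had a mean of 8.90 at 24 h and of 8.05 at 6 h, a log2 change of 0.85 ± 0.17 (SE) (limma, adjusted p = 0.0357). A second set that rose, singled out after its values were seen, had means of 14.41 at 24 h and 13.68 at 6 h and a log2 change of 0.73 ± 0.15 (SE) (adjusted p = 0.0366). On the first array of library 1 at 6 h, 2 of its 4 spots were marked for exclusion by the scanner software, and with marked spots left out its log2 change was 0.59 and missed the threshold (adjusted p = 0.0755). One of the 3 that fell, also singled out afterwards, dropped by 0.60 on the log2 scale, with means of 14.86 at 24 h and 15.47 at 6 h (limma, adjusted p = 0.0403). On the arrays of library 2 at 6 h, 4 and 3 of its 4 spots exceeded 60000, near the upper limit of the scanner, so its 6 h level there is a lower bound. None of the other 9 sets had a spot above 60000 at 24 h or 6 h.

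The change was repeated between the libraries only in part. Over the 224 sets the step of library 1 and that of library 2 had the same direction in 146 sets (65.2%), and their correlation across sets was 0.556 (Pearson) and 0.465 (Spearman). The points share the normalization over all arrays, and spot sets are not independent replicates. All 10 sets past the threshold moved the same way in both libraries, a property that the test favours. The 4 arrays of 24 h did not overlap those of 6 h in 17 sets (7.59%), 10 (4.46%) with higher and 7 (3.12%) with lower arrays at 24 h, and 6 of these 17 were among the 10 sets past the threshold.

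**Figure D2:**
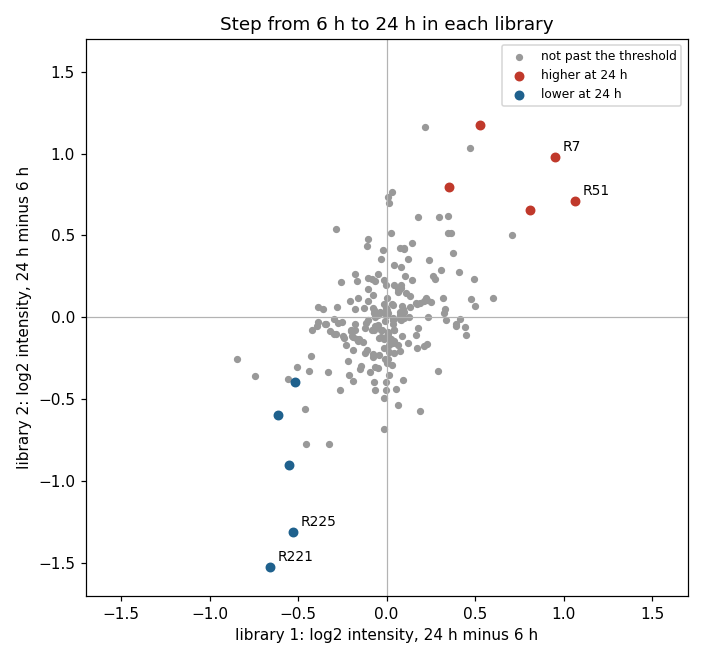
Step in library 2 (vertical axis) against step in library 1 (horizontal axis), each as log2 intensity at 24 h minus 6 h, for 224 spot sets; red points were higher and blue points lower at 24 h past the threshold, and grey points did not pass. The 10 coloured points lie to the upper right and lower left, and R221 and R225 lie lowest, with steps of -1.52 and -1.31 in library 2.

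After normalization the log2 change was small in most sets and spread more widely among bright sets. The median log2 change of all sets was -0.02, a value that quantile normalization holds near 0 and that was 0.09 without normalization. The middle part of the distribution (5th to 95th percentile) ran from -0.40 to 0.43, and only R221 had a log2 change of more than 1 in size. By comparison, the median SD between the arrays of a library was 0.12 and 0.13 at 24 h and 0.16 and 0.13 at 6 h (libraries 1 and 2), and the median SD between the libraries of a time was 0.14 at 24 h and 0.16 at 6 h. When the sets were ranked by mean level and cut into 3 parts, the log2 change had an SD across sets of 0.38 in the 75 bright sets, 0.24 in the 74 middle sets and 0.12 in the 75 dim sets. Of the 10 sets past the threshold, 7 were among the bright sets (4 higher and 3 lower), 3 among the middle sets (1 higher and 2 lower) and 0 among the dim sets by limma. The offset of 50 that is added before the log draws dim sets together, so a small change in a set at an intensity of that order cannot be read as a steady level. The 14 sets with N codes had a median log2 change of 0.05, between -0.35 and 0.40, and 0 of the 14 passed the threshold by limma or had an unadjusted p under 0.05. Over all 224 sets 4.46% passed and 33 had an unadjusted p under 0.05, so a count of 0 in 14 is near the overall share.

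**Figure D3:**
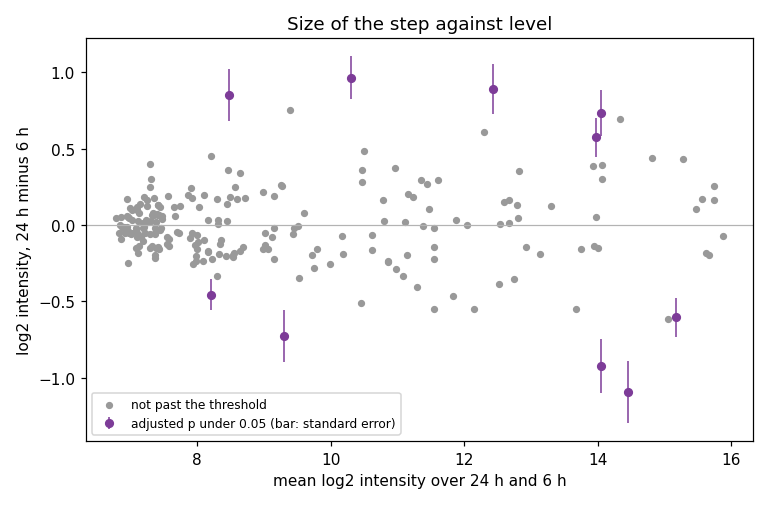
Log2 change from 6 h to 24 h (vertical axis, 24 h minus 6 h) against the mean log2 intensity of the 2 times (horizontal axis) for 224 spot sets, with the 10 sets past the threshold in purple with their standard errors. Grey points spread more widely at higher levels, with an SD of 0.12 among the 75 dim sets and 0.38 among the 75 bright sets.

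Set beside the other steps of the treatment, the step from 6 h to 24 h had fewer sets past the threshold than the earlier ones. In the same fit 25 of 224 sets (11.2%) differed between 2 h and 0.5 h, 14 higher (6.25%) and 11 lower (4.91%) at the later time. Another 35 (15.6%) differed between 6 h and 2 h, 17 higher (7.59%) and 18 lower (8.04%). The counts were 10 (4.46%) between 24 h and 6 h, and 0 (0%) between 48 h and 24 h by limma, where 26 had an unadjusted p under 0.05. The SD of the log2 change across sets was 0.35, 0.37, 0.27 and 0.22 in the same order. The steps span unlike lengths of time, and in each of them time in PEG, time of day and seedling age cannot be told apart. The steps share one estimate of the spread, and the steps that touch share libraries. Without the block the first 2 steps had 1 set each. Leaving out a 0.5 h library gave 4 or 10 sets for 2 h against 0.5 h, leaving out a 6 h library gave 6 or 10 for 6 h against 2 h, and leaving out a 2 h library gave 2 for 48 h against 24 h. A difference between the counts of the steps was not tested. Under median scaling the counts were 55 (14 higher), 103 (60 higher), 16 (4 higher) and 5 (2 higher).

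**Figure D4:**
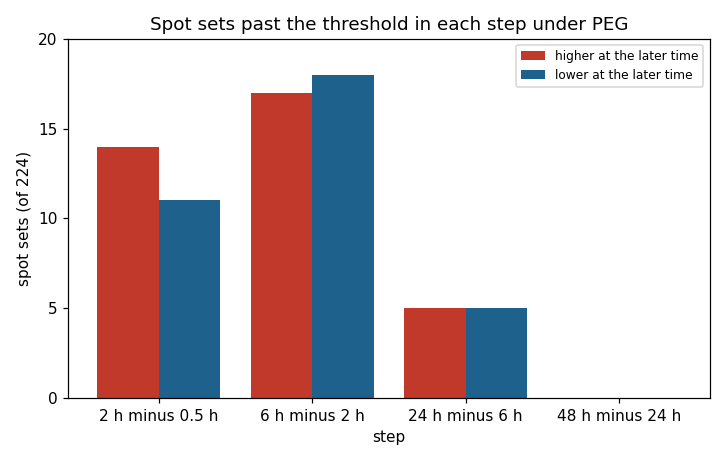
Number of spot sets of 224 (vertical axis) that were higher (red) or lower (blue) at the later time of each step under PEG past an adjusted p of 0.05, with the steps in order of time (horizontal axis). The step from 6 h to 24 h has 5 higher and 5 lower, against 17 and 18 for the step from 2 h to 6 h and 0 for the step from 24 h to 48 h.

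The step from 0.5 h to 2 h shares no library with the step from 6 h to 24 h, and the difference between these steps was tested set by set. The earlier step is much the shorter, and the steps cannot be matched for time of day. It passed the threshold in 15 of 224 sets (6.70%), of which 10 (4.46%) had the higher and 5 (2.23%) the lower log2 change in the 24 h against 6 h step. Without the block 0 sets passed by limma and 18 had an unadjusted p under 0.05. Leaving out library 2 of 24 h, library 2 of 6 h or any 0.5 h library left 1 set, and leaving out library 1 of 6 h left 2. An offset of 200 left 2 and the first hybridizations alone left 3, and under both R7, R221, R225, R220 and R35 missed the threshold. Without normalization 4 were higher and 5 lower, and with cyclic loess 6 were higher and 5 lower. The 15 sets include 2 of the 14 N sets, both with the higher change from 6 h to 24 h. In 12 of the 15 the steps had opposite signs, and in 8 the earlier step was the larger in size. Of the 10 sets that changed between 24 h and 6 h, 4 differed between the steps, among them R7, R221 and R225. R7 had a step of 0.96 from 6 h to 24 h and of 0.01 from 0.5 h to 2 h, a difference of 0.95 ± 0.20 (SE) (limma, adjusted p = 0.0339). R221 had a difference of -1.21 ± 0.29 (SE) (adjusted p = 0.0435). R7 and R221 each lost this call without the block (0.249 and 0.864) and in 6 of the 10 fits that left out 1 library, with adjusted p up to 0.144 and 0.262. For R51 the difference of 0.49 missed the threshold (adjusted p = 0.354). After each sub-grid's median had been subtracted, the differences of R7, R51 and R221 were 0.65, 0.19 and -0.95 (limma, adjusted p = 0.0401, 0.712 and 0.0424).

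Spot set R220 had the largest positive difference between the steps. At 24 h its log2 intensities were 12.49 and 13.25 in library 1 and 12.27 and 12.40 in library 2, and at 6 h they were 11.98 and 12.34 in library 1 and 11.74 and 11.92 in library 2. Library 1 was above library 2 at both times, and the arrays overlapped between the times. The log2 change from 6 h to 24 h was 0.61 ± 0.16 (SE) and missed the threshold (limma, adjusted p = 0.0648). From 0.5 h to 2 h R220 had a log2 change of -0.77 with the same standard error (adjusted p = 0.0152). The difference was 1.38 ± 0.22 (SE) (adjusted p = 0.0202), and it was 1.56 within library 1 and 1.19 within library 2. Over its 29 alternatives the adjusted p ranged from 6.56e-05 to 0.452, and it was lost without the block (0.452), without either library of 0.5 h (0.0719 and 0.0662) or of 6 h (0.114 and 0.109) and without library 2 of 24 h (0.0991).

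Spot set R225 had steps of -0.92 from 6 h to 24 h and of 0.45 from 0.5 h to 2 h, a difference of -1.37 ± 0.25 (SE) (limma, adjusted p = 0.0325). The call was lost without the block (adjusted p = 0.864), without library 2 of 24 h (0.0991), without either library of 6 h (0.0584 and 0.109) and without either library of 0.5 h (0.0719 and 0.0662). Spot set R218 had the largest difference of all, -1.67 ± 0.14 (SE) (adjusted p = 0.00026), but its step from 6 h to 24 h was only -0.24 (adjusted p = 0.325) against 1.43 from 0.5 h to 2 h (adjusted p = 5.35e-05). The libraries of R218 stood apart at both times, with 9.97 in library 1 and 11.50 in library 2 at 24 h, and 10.19 in library 1 and 11.77 in library 2 at 6 h. Its difference kept its call without any 1 of the 10 libraries (adjusted p at most 0.00577) and lost it without the block (0.994).

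Spot set R35 had a difference of 1.26 ± 0.27 (SE) (limma, adjusted p = 0.0339). Its log2 intensities at 24 h were 14.33 and 14.85 in library 1 and 14.79 and 14.71 in library 2. At 6 h they were 14.23 and 14.51 in library 1 and 12.73 and 14.45 in library 2. The arrays overlapped between the times, and 1 array of library 2 at 6 h stood far below all others. That array had 1 spot of R35 with an intensity of 99.9 that the scanner software had marked for exclusion, beside 3 spots of 22671 to 33119. With marked spots left out the step of R35 from 6 h to 24 h was 0.26 (adjusted p = 0.437) in place of 0.69 (adjusted p = 0.0755), and the difference was 0.84 (adjusted p = 0.0343). The call for the difference was lost without the block (0.452), without either library of 0.5 h (0.125 and 0.0887) or of 2 h (0.0520 and 0.0581), in fits lacking library 2 of 24 h (0.126) or that of 6 h (0.109). The second hybridizations alone gave 0.0711.

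**Figure D5:**
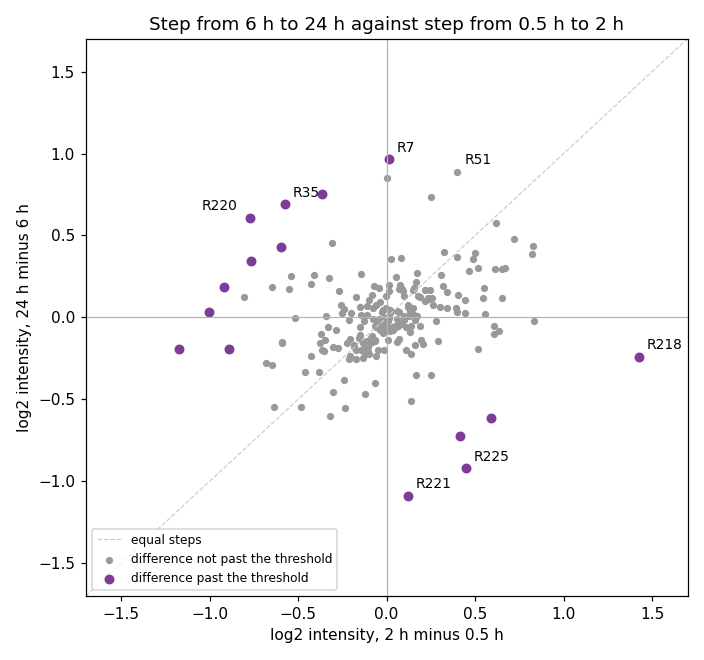
Log2 change from 6 h to 24 h (vertical axis, 24 h minus 6 h) against the log2 change from 0.5 h to 2 h (horizontal axis, 2 h minus 0.5 h) for 224 spot sets, with purple points where the difference of the steps passed the threshold and a dashed line where the steps are equal. R220 and R35 lie above the line on the left, R221 and R225 below it, and R218 far to the right with a step of -0.24 from 6 h to 24 h.

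One array stood apart from the rest at 24 h, the first hybridization of library 1. Its median intensity was 407 against 194 to 226 on the other 3 arrays of 24 h and 206 to 277 on the arrays of 6 h, and its 5th percentile was 135 against 34.0 to 45.6 at 24 h and 34.7 to 53.0 at 6 h. Without that array 12 sets passed between 24 h and 6 h, 7 higher and 5 lower, with 8 of the 10 sets among them. R7, R51, R221 and R225 kept their calls, with log2 changes of 1.03, 0.79, -1.06 and -0.90, and R220 and R35 passed with log2 changes of 0.80 and 0.83 (adjusted p = 0.0488 each). That fit kept the marked spot of R35 at 6 h described above. With marked spots left out and all arrays kept, the step of R35 was 0.26 (limma, adjusted p = 0.437). Without the array that stood apart, the difference between the steps passed in 7 sets in place of 15.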

How the data were processed

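Small RNA libraries were labelled by PCR with a Cy5 primer, per the labels, and hybridized in 1 colour. The authors' deposited scanner intensity is linear and, per the file headers, comes from circles of fixed size without crosstalk correction or subtraction of background. In the deposited table of the series the same values appear as intensity less background (largest difference 9e-06 over 896 spots and 24 arrays), and this other deposited column served as an alternative. Background was 0 for nearly all spots, so signal over background cannot be judged.

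The 20 arrays of the treated times were taken as log2(intensity + 50), quantile normalized, and averaged over the 4 spots of a set and the 2 hybridizations of a library. The 0 h libraries were not used. limma 3.58.1 (R 4.3.3) fitted time point plus library number to the 10 libraries (4 residual degrees of freedom), which share 1 spread estimate. Tests are two-sided, adjusted over 224 sets, with a threshold of 0.05, and standard errors are moderated. Pairing by library number is part of how the comparison was defined. In a check of the data, the deviation of library 1 from library 2 in all sets correlated in each of 10 pairs of treated times (0.663 to 0.766). What libraries of 1 number share is not stated in the labels. The named sets are the 2 with the largest rise and the 2 with the largest fall past the threshold with the same direction in both libraries, in each test, leaving out sets with a ceiling spot on every array of a time. Members, rules and tests were chosen with earlier results of these data known. The R105 code stands at 2 places and was kept as 2 sets.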

Additional observations from a re-analysis of the deposited data

Results flagged for a closer look

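At 24 h and 6 h, 18 groups of 4 arrays were tested (the 7 named sets and 2 array summaries at each time). Of these, 3 held an array far from the others. Chance would give 0.9 if all arrays and groups were independent. They are not, since arrays come in pairs from a library and the array summaries flagged at 24 h are of the same array. The 3 can therefore not be weighed against 0.9. At 24 h, library 1 gave on its first array a median intensity of 407, far above the next highest of 226, and a 5th percentile of 135, far above the next highest of 45.6. Spot set R35 had a log2 intensity of 12.73 on the first array of library 2 at 6 h, with 14.23 the next lowest, and that array held the marked spot of R35 described above.

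The step from 6 h to 24 h differed from the step from 0.5 h to 2 h, by the test of the difference in limma, in R220 (1.38), R35 (1.26), R218 (-1.67) and R225 (-1.37, all on the log2 scale). With marked spots left out the difference of R35 was 0.84. R218 changed by 1.43 in the earlier step and by only -0.24 in the later one. None of these sets kept the call without the replicate block. The cause of these differences was not tested.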

How the results depend on the processing

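Counts are of spot sets past the threshold, for 24 h minus 6 h (10 as reported), the difference between the steps (15), 2 h minus 0.5 h (25), 6 h minus 2 h (35) and 48 h minus 24 h (0). Without the replicate block, that is without pairing libraries by number, they were 0, 0, 1, 1 and 0. With only the 4 libraries of 24 h and 6 h the step had 1 with the block and 0 without it. An offset of 200 gave 0, 2 and 14 for the first 3. No normalization gave 9 for the difference, 79 for 6 h minus 2 h and 4 for 48 h minus 24 h, with median shifts over all sets of 0.09 (24 h minus 6 h), 0.13 (2 h minus 0.5 h), -0.33 (6 h minus 2 h) and 0.28 (48 h minus 24 h). Median scaling gave 16 for the step, then 55, 103 and 5 for the other steps. Cyclic loess gave 5 for 48 h minus 24 h, sub-grid medians 38 for 2 h minus 0.5 h, and the median of the 4 spots 8 for the difference. First hybridizations alone gave 0, 3 and 9, second hybridizations alone 3, 8 and 12 for the first 3. All 20 hybridizations with the library as a random block gave 45 for 2 h minus 0.5 h and 5 for 48 h minus 24 h. That fit estimated a correlation of -0.02 between hybridizations of a library, so it counted technical replicates nearly as independent samples. The brighter sets alone gave 18 for the step and 6 for 48 h minus 24 h, out of 112 sets tested and adjusted over those 112. That fit took the spread mostly from all of its sets together, and it gave the smallest adjusted p printed for R7, R51 and R220. Leaving out the array that stood apart at 24 h, chosen after seeing the data, gave 7 for the difference. Leaving out 1 library gave 0 to 11, 1 to 15, 4 to 29, 6 to 37 and 0 to 2. The cause of these shifts was not tested. The remaining alternatives stayed within 1.5 times of each count, and no named set turned its direction under any alternative. With 2 libraries per time the number of libraries limits every call, and signal over background was not available.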
